A study of Mus musculus with 8 samples.

Results

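The proteasome and immunoproteasome subunits were followed in lymphatic endothelial cells of mouse ear skin, at rest and in contact hypersensitivity, an inflammation provoked by a skin allergen. A gene was taken as a member when its symbol began with Psma to Psmg followed by a number and a probe set of the array named it alone. This gave 49 genes on 103 probe sets, of 18193 genes on 34945 probe sets that name 1 gene. Of these 49, 47 were bright enough to be tested, among 10843 genes tested in all. Psma8 and Psmb11, core subunits known from testis and thymus, were too dim. Psmc3ip and Psme3ip1 match by symbol but encode partner proteins and no subunit. Psme2 shared its probe set with Psme2b, so no value is given for it.

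The proteasome cuts ubiquitin-tagged proteins into peptides. Its 20S core is a barrel of alpha and beta rings in which Psmb5, Psmb6 and Psmb7 carry the cutting sites, and the 19S particle on its ends recognises, unfolds and feeds the substrate. Interferon is known to induce 3 other beta subunits, Psmb8, Psmb9 and Psmb10, which replace Psmb5, Psmb6 and Psmb7 in newly made cores and form the immunoproteasome, whose peptides are well suited to MHC class I molecules. It also induces Psme1 and Psme2, which form the 11S activator, also called PA28.

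The cells came from female FVB mice of 8 to 10 weeks and were sorted as CD31+ podoplanin+ CD45- cells. In the inflamed group, the mice had been sensitised on abdomen and paws with 2% oxazolone and challenged on the ears 5 days later with 10 µl of 1% oxazolone per side, 24 hours before the ears were taken. The untreated group is labelled as healthy mice without treatment, and no group with vehicle alone was analysed here. Each group held 4 samples of 3 pooled mice, forming 4 pairs of 1 untreated and 1 inflamed sample that were sorted and processed together on 1 day. The comparison addresses how the transcripts of lymphatic endothelial cells differ between inflamed and resting skin.

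Values are log2 of the deposited array signal. A change is the mean of inflamed minus untreated arrays over the 4 pairs, with the moderated standard error (SE) of the limma fit, and adjusted p-values are from that fit after Benjamini-Hochberg adjustment over all 10843 genes, called at 0.05. The background ceiling of an array is the 95th percentile of its bacterial control probe sets, between 2.53 and 3.31. The median change of all genes was -0.09 and became 0.22 after median centring of the arrays. The 5 measured lymphatic markers, Prox1, Lyve1, Flt4, Pdpn and Mmrn1, were above the ceiling on all 8 arrays. Their summed signal lay between 16496 and 21658 on untreated and between 10449 and 17919 on inflamed arrays. Mmrn1 fell (change -1.20, adjusted p = 0.00216 in limma) while the other 4 did not pass. Prox1 differed by -1.44 (adjusted p = 0.0618 in limma), Flt4 by -0.37, Lyve1 by -0.18 and Pdpn by 0.56 (adjusted p = 0.0605 in limma). Of the 3 endothelial markers, Tie1 fell, by 2.18 (adjusted p = 0.0141), and Pecam1 and Cdh5 did not pass. Markers of other cells moved between the groups. The summed signal of 7 neutrophil markers lay between 17.8 and 43.4 on untreated and between 695.5 and 1649 on inflamed arrays, and Ltf was under the ceiling on all 8 arrays. Only S100a8 and S100a9 were tested, and both rose. Of the untested markers, Cxcr2 differed by 2.74, Csf3r by 1.97, Camp by 0.76, Ltf by 0.22 and Ngp by 0.02. The sum of 5 pan-leukocyte markers lay between 136.5 and 682.0 and between 1167 and 6218. Of the 4 tested, Cd53 and Lcp1 rose. Coro1a differed by 2.77 (adjusted p = 0.0965 in limma) and Laptm5 by 0.38 (adjusted p = 0.863 in limma), and neither passed. The untreated means of S100a8, S100a9, Cd53 and Lcp1, at 1.49, 2.27, 0.90 and 1.54, lay under the filter of 3.30, so these genes were tested only through the inflamed group, where their means were 8.51, 9.57, 9.97 and 7.70. Ptprc, which encodes CD45, was under the ceiling on all 4 untreated arrays and above it on 3 of 4 inflamed arrays. The 8 monocyte and macrophage markers summed to between 478.8 and 1043 and between 590.0 and 1743, and 0 of 6 tested members passed in limma. The sums of the 6 fibroblast markers were 4341 to 17648 and 9681 to 22053, with 1 member, Lum, higher. Those of the 4 keratinocyte markers were 642.1 to 2648 and 43.4 to 854.4, with Krt5 and Krt10 lower. The inflamed mean of Krt10, at 2.70, lay under the filter, so it was tested only through the untreated group, where its mean was 8.69. T cell, B cell and dendritic cell sums overlapped between the groups. Blood endothelial sums also overlapped, and 0 of those 5 markers passed. For Gapdh, the log2 ratio of the 3' over the 5' control probe set was lower in the inflamed sample of all 4 pairs, with means of 3.06 against 3.85, and that of Actb was -0.07 against -0.08. The part of these markers and ratios in the results was not tested. In such bulk samples, more cells of a type and more RNA per cell cannot be told apart.

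In inflamed samples 11 of the 47 tested members rose and 0 fell, while 3.91% of all genes tested rose and 3.02% fell. At an unadjusted p under 0.05 in limma, 23 members were higher and 0 lower, while 10.5% of all genes were higher and 11.5% lower at that threshold. The median change of the 47 was 0.71 against -0.09 for all genes tested, and 43 of the 47 were measured higher, against 46.2% of all genes. The groups did not overlap, with inflamed higher, for 15 members, against 6.3% of all genes. A total of 24 members were higher in all 4 pairs, against 13.6% of all genes, and 0 were lower in all 4, against 15.5%. The count of members that rose was 17 after median centring, 2 without the intensity trend of the limma fit and 7 without pair 1, without pair 2, without pair 3 or without pair 4. The 7 without pair 4 were 6 of the 11 and Psmg4. The calls over all genes also changed under these settings, as given in the last section.

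**Figure D1:**
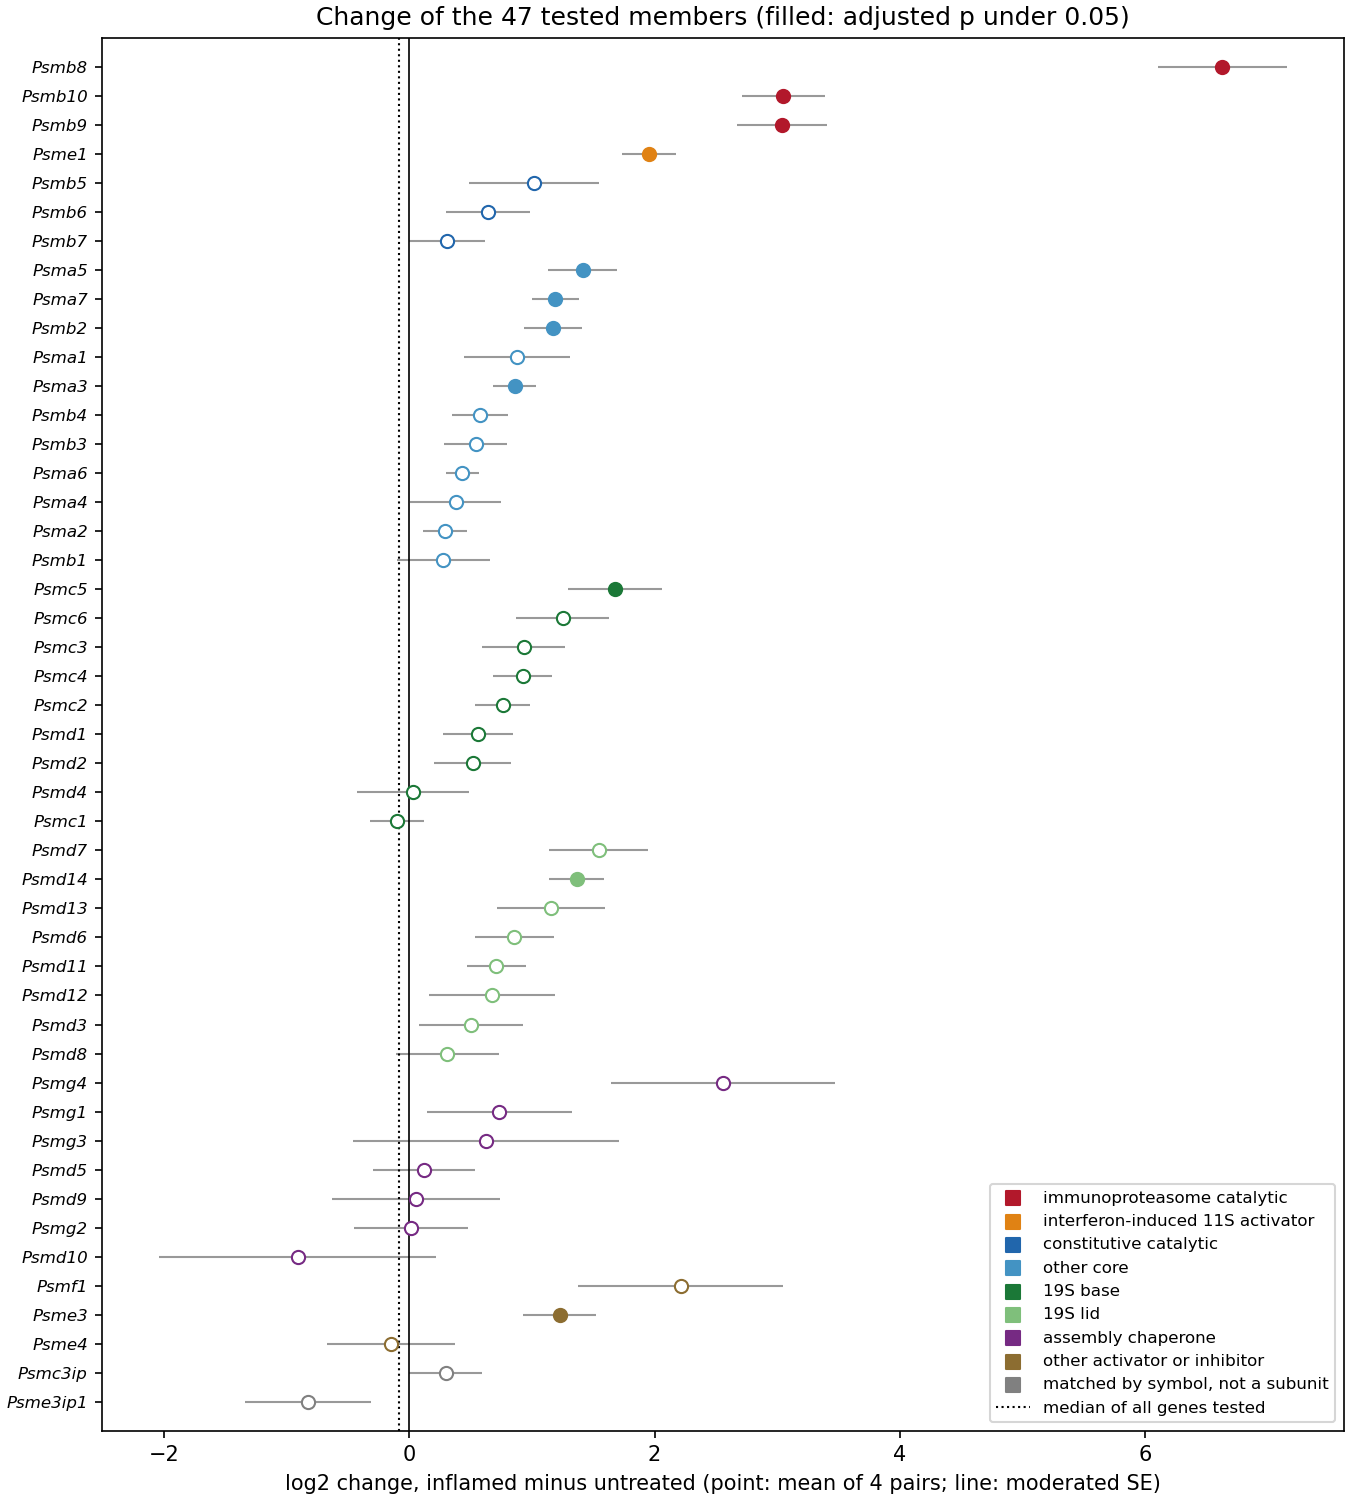
Log2 change of each of the 47 tested members, inflamed minus untreated, as the mean of 4 pairs with the moderated SE as a line; colours give the class, filled points passed an adjusted p of 0.05 in limma, and the dotted line is the median of all genes tested (-0.09). Psmb8 stands at 6.63, Psmb9, Psmb10 and Psme1 between 1.96 and 3.05, and most 20S and 19S subunits between 0 and 1.68.

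Psmb8, Psmb9 and their neighbours Tap1 and Tap2 lie side by side in the MHC region of chromosome 17, in the order Psmb9, Tap1, Psmb8, Tap2 among protein-coding genes of the RefSeq annotation (GRCm38.p6). Tap1 and Tap2 form the transporter that carries proteasome products to MHC class I molecules. Because Psmb9 and Tap1 are read in opposite directions from 1 short stretch, that stretch is shown whole, from Tap1 towards Psmb9. It is followed by the part of the Psmb8 promoter and the start of Psme1 that hold a match to an interferon motif. All are written 5′ to 3′ on the strand of the member, from RefSeq.
Psmb9 to Tap1, the 225 bases between the start sites, chr17:34187331-34187555, minus strand: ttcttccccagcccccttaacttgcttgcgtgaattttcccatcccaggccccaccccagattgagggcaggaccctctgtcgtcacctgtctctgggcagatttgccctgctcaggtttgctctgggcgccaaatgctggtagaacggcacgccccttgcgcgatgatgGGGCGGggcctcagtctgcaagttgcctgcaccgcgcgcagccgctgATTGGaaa
Psmb8, from 127 to 59 bases before the start, chr17:34198068-34198136, plus strand: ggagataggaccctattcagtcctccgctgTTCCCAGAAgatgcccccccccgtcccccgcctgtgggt
Psme1, at the start, chr14:55578493-55578522, plus strand: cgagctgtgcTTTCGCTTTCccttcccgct
Capitals mark a GC box (GGGCGG) and a CCAAT box (here on the other strand) between Psmb9 and Tap1, a match to the gamma-activated site (TTCNNNGAA) in Psmb8, and a match to the core of the interferon-stimulated response element (searched by name, here on the other strand) in Psme1.

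Windows of 300 bases, from 250 before the start to 50 from it onwards, were searched on both strands for 41 of the member genes with 44 windows. The response element core was in 5 member windows, those of Psmb3, Psmd4, Psmd9, Psme1 and Psmg4, and in 3.44% of all 32851 windows. The gamma-activated site was in 3, those of Psmb8, Psmd2 and Psmg1, and in 8.30% of all. A pair of IRF half-sites (AANNGAAA), which overlaps the response element core, was in 13 member windows and 23.9% of all. An NF-kB motif, searched as a pattern of letters, was in 1, that of Psmd12, and in 4.51% of all. The core of the antioxidant response element (TGACNNNGC), which factors of the NRF family read in proteasome genes, was in 6, those of Psmb5, Psmb6, Psmc6, Psmd12, Psmd9 and Psme4, and in 12.4% of all. The GC box was in 23 member windows and 35.7% of all, and the CCAAT box in 16 and 37.4%. The window of Psmb9 held no match to the interferon or NF-kB patterns searched. Psmb10 had no match to any motif listed, and whether it had a window is not known here.

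The 3 catalytic subunits of the immunoproteasome all rose. Psmb8, the replacement of Psmb5, was at 3.28, 4.79, 5.91 and 3.19 on untreated arrays 1 to 4 and at 10.33, 10.94, 11.14 and 11.28 on inflamed arrays 1 to 4. Its lowest inflamed array stood far above its highest untreated one, and untreated array 4 was under the background ceiling. The mean went from 4.29 ± 1.30 to 10.92 ± 0.42 (SD, n = 4), a rise of 6.63 ± 0.53 (SE; adjusted p = 0.000273), or 99.2-fold, the largest change of any member. A further, dim probe set of Psmb8 did not pass the filter and measured -0.55.

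Psmb9, the replacement of Psmb6, was at 6.97, 8.49, 8.52 and 7.60 on untreated and at 11.34, 10.90, 10.76 and 10.73 on inflamed arrays. The groups did not overlap, and the untreated arrays spread more widely than the inflamed ones. It rose by 3.04 ± 0.37 (SE; adjusted p = 0.00173), or 8.23-fold, and by between 2.24 and 4.38 in the 4 pairs.

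Psmb10, the replacement of Psmb7, was at 6.32, 6.96, 6.97 and 8.17 on untreated and at 10.06, 10.00, 9.89 and 10.65 on inflamed arrays. Its groups did not overlap either, and array 4 was the highest of each group. It rose by 3.05 ± 0.34 (SE; adjusted p = 0.00129), or 8.28-fold.

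Psme1, a subunit of the 11S activator that opens the core to short substrates, was at 9.54, 9.72, 8.75 and 10.16 on untreated and at 11.54, 11.45, 11.37 and 11.63 on inflamed arrays. The inflamed arrays lay close together, and no untreated array reached them. It rose by 1.96 ± 0.22 (SE; adjusted p = 0.00141), or 3.88-fold. Psme1 and Psmb9 rose also without each pair, and without the intensity trend their adjusted p was 0.0849 and 0.0596, while Psmb8 and Psmb10 passed under all 12 alternatives. The neutrophil and pan-leukocyte sums given above were higher in the same samples, though not every marker in those lists rose. Leukocytes are known to express immunoproteasome subunits. Their part in these changes was not tested.

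**Figure D2:**
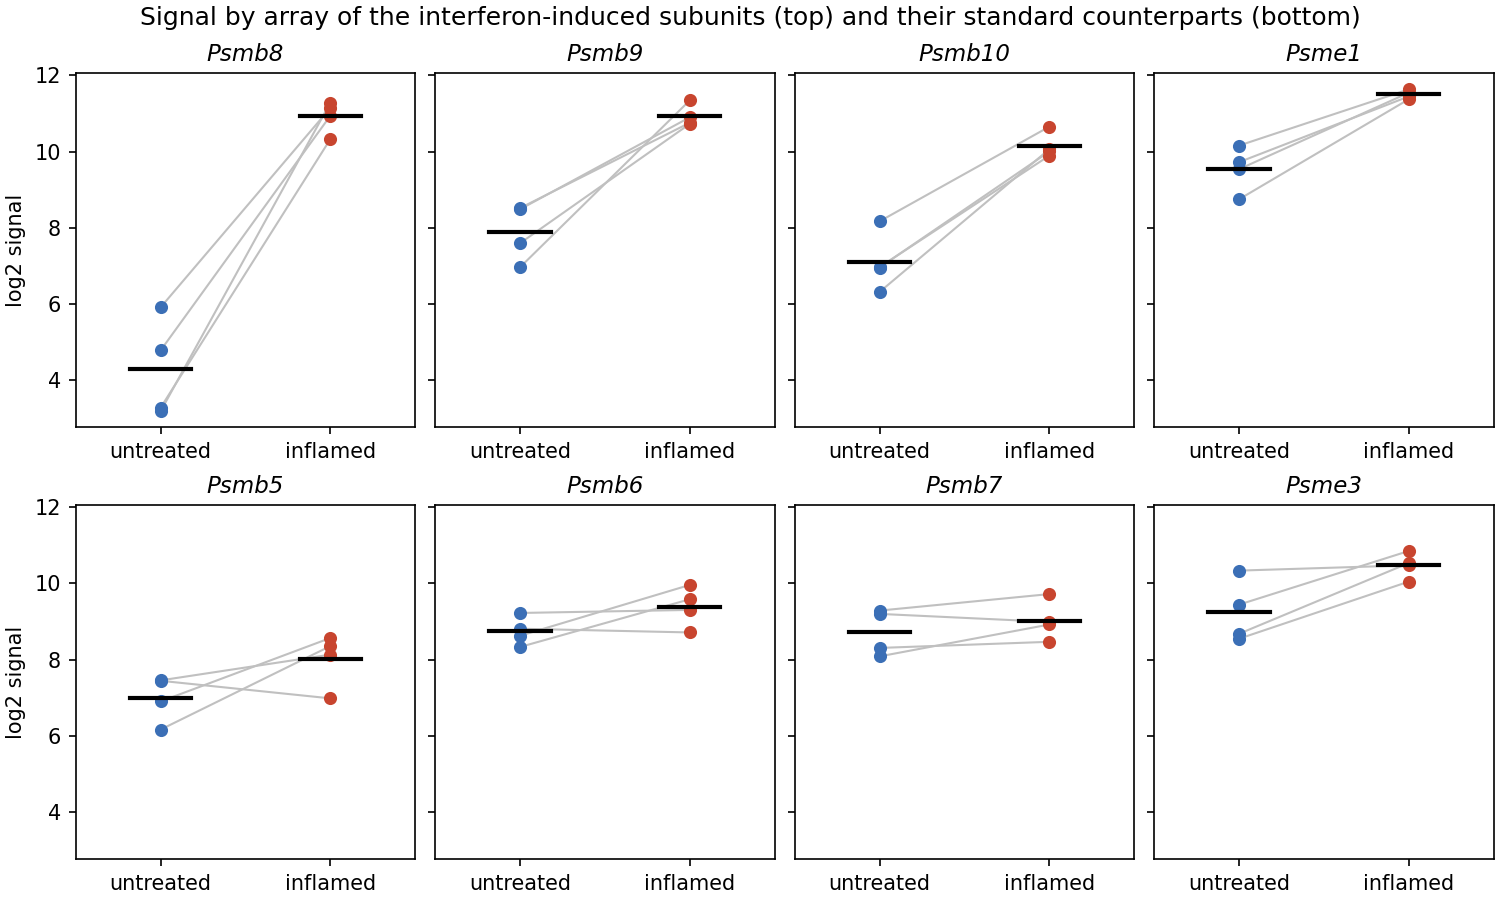
Log2 signal on each array of Psmb8, Psmb9, Psmb10 and Psme1 (top) and of Psmb5, Psmb6, Psmb7 and Psme3 (bottom), with grey lines joining the 2 arrays of a pair and black bars at the group means. The inflamed arrays of the upper 4 genes all lie above their untreated arrays, while the groups overlap for the lower 4.

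The 3 standard catalytic subunits did not pass the test, and 0 of 3 had an unadjusted p under 0.05 in limma. Psmb5, which carries the chymotrypsin-like site, was at 6.16, 7.45, 6.90 and 7.44 on untreated and at 8.35, 8.13, 8.57 and 6.98 on inflamed arrays. Inflamed array 4 lay within the untreated range and the other 3 above it. The measured change was 1.02 ± 0.53 (SE; adjusted p = 0.304).

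Psmb6, the subunit with the caspase-like site, was at 8.81, 8.33, 8.62 and 9.22 on untreated and at 8.71, 9.58, 9.96 and 9.30 on inflamed arrays, with a change of 0.64 ± 0.34 (SE; adjusted p = 0.320). Psmb7, the subunit with the trypsin-like site, was at 9.28, 8.08, 8.31 and 9.20 and at 9.72, 8.92, 8.47 and 8.99, with a change of 0.31 ± 0.31 (SE; adjusted p = 0.626). The groups overlapped for both, and each was higher in 3 of the 4 pairs.

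Each induced subunit was set against its counterpart within each pair, as the difference of their changes, in 4 comparisons. The change of Psmb8 exceeded that of Psmb5 by 4.86, 5.48, 3.57 and 8.56 in pairs 1 to 4, a mean of 5.61 ± 2.12 (SD, n = 4 pairs). The pair 4 difference was taken against a Psmb8 value under the ceiling, so its size, and that of the mean, is not well determined. For Psmb9 over Psmb6 the differences were 4.48, 1.16, 0.91 and 3.05, with a mean of 2.40 ± 1.68. For Psmb10 over Psmb7 they were 3.31, 2.21, 2.76 and 2.69, with a mean of 2.74 ± 0.45. In all 3 comparisons the induced subunit changed more in 4 of 4 pairs (exact two-sided sign-flip permutation p = 0.125, the smallest that 4 pairs allow, and 0.167 after Benjamini-Hochberg adjustment over the 4 comparisons). Psmb10 over Psmb7 varied least between pairs. Psme1 was set against Psme3, which forms the nuclear 11S activator, and the differences were 0.51, 1.59, 1.22 and -0.38, with a mean of 0.73 ± 0.87 (exact sign-flip permutation p = 0.250, adjusted 0.250), so pair 4 went the other way.

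Of the 14 standard core subunits, the 3 above and 11 structural ones, 4 rose and 0 fell. Their median change was 0.61, and all 14 were measured higher. Of all genes tested, 3.91% rose, 3.02% fell and 46.2% were measured higher. Psma3, Psma5 and Psma7 are subunits of the outer alpha ring, which gates the entry to the core, and Psmb2 belongs to the inner beta ring. Psma3 was at 9.94, 10.23, 9.98 and 9.97 on untreated and at 10.81, 10.92, 10.88 and 10.96 on inflamed arrays. These were the tightest groups of any core subunit that rose, and they did not overlap. Psma3 rose by 0.86 ± 0.18 (SE; adjusted p = 0.0208), or 1.81-fold.

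Psma5 was at 8.98, 8.17, 8.66 and 8.92 on untreated and at 10.10, 10.25, 9.60 and 10.43 on inflamed arrays, and rose by 1.41 ± 0.28 (SE; adjusted p = 0.0179), or 2.67-fold. Psma7 was at 9.61, 9.48, 9.95 and 10.14 and at 11.10, 10.77, 10.88 and 11.19, and rose by 1.19 ± 0.19 (SE; adjusted p = 0.00736), or 2.28-fold. Both passed the test on each of their 2 bright probe sets. Psmb2 was at 9.06, 9.65, 9.30 and 9.10 and at 9.71, 10.77, 10.80 and 10.51, and rose by 1.17 ± 0.24 (SE; adjusted p = 0.0190), or 2.25-fold. The groups of all 3 genes stood apart, with the narrowest gap for Psmb2, between untreated array 2 and inflamed array 1.

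The other 7 structural core subunits did not pass, with changes from 0.28 for Psmb1 to 0.88 for Psma1. Psmb1 was at 8.10, 7.41, 8.19 and 8.35 on untreated and at 8.35, 8.44, 7.99 and 8.38 on inflamed arrays (adjusted p = 0.730), so all but untreated array 2 lay close together. Psma2, Psma6 and Psmb3 were higher in all 4 pairs, by 0.29, 0.43 and 0.54 on average. Psma4 and Psmb4 differed by 0.38 and 0.58. Of the core calls, that of Psma7 held without any 1 pair, and all 4 ended without the intensity trend. Those of Psma3, Psma5 and Psmb2 ended without some pairs: without pair 1 the adjusted p was 0.0792 for Psma3 and 0.0582 for Psma5, without pair 2 0.0607, 0.0760 and 0.0743 for Psma3, Psma5 and Psmb2, without pair 3 0.0884 and 0.101 for Psma3 and Psmb2, and without pair 4 0.0568, 0.0547 and 0.0557 for Psma3, Psma5 and Psmb2. The call of Psma3 also ended with quantile normalization (adjusted p = 0.0512) and with the mean of its probe sets (0.0892).

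**Figure D3:**
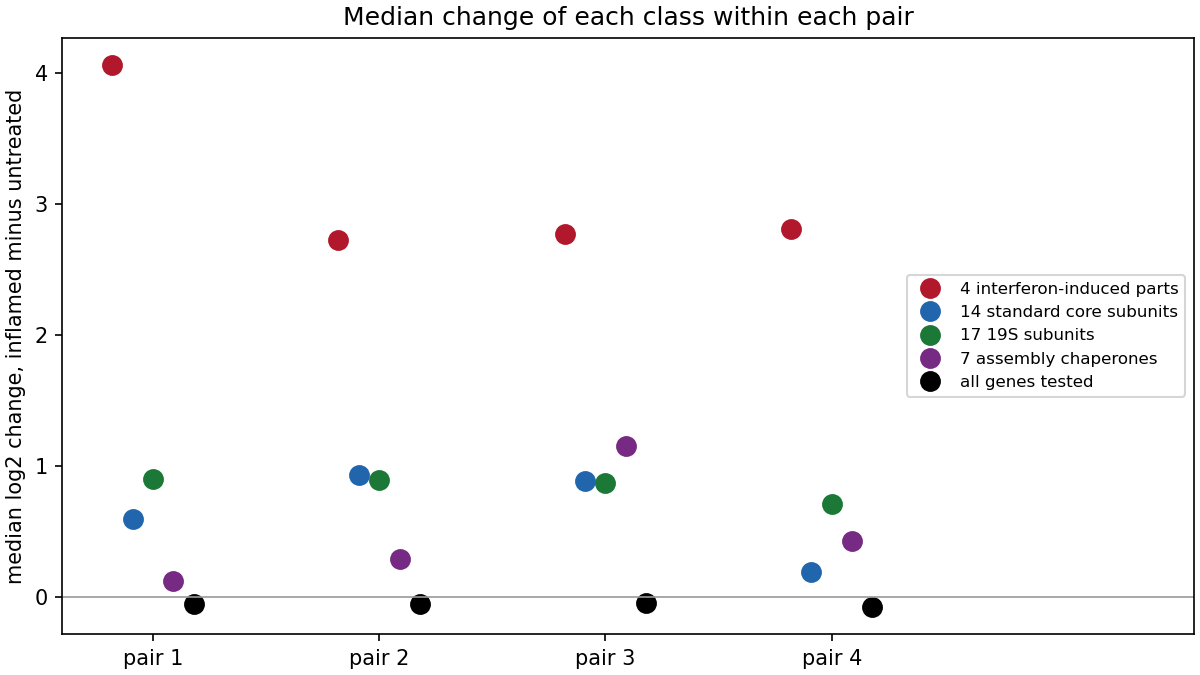
Median log2 change, inflamed minus untreated, within each of the 4 pairs, for the 4 interferon-induced parts, the 14 standard core subunits, the 17 19S subunits, the 7 assembly chaperones and all genes tested. The interferon-induced parts lie between 2.73 and 4.06, the 19S subunits between 0.71 and 0.90, and the core subunits between 0.19 in pair 4 and 0.93 in pair 2, with all genes between -0.07 and -0.04.

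Within each pair, the standard core subunits and the 19S members had higher median changes than all genes tested. The median change of the 14 core subunits was 0.60, 0.93, 0.88 and 0.19 in pairs 1 to 4. That of the 17 tested 19S members was 0.90, 0.89, 0.87 and 0.71. Over all genes tested the medians were -0.05, -0.05, -0.04 and -0.07. The 3 standard catalytic subunits, counted among the 14, had medians of 0.43, 0.84, 1.33 and -0.21. In pair 4 their median was thus lower than that of all genes. Pair 4 had the smallest shift of the 14 core subunits, while its 19S shift was near that of the others.

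Of the 17 19S subunits among the members, 2 rose and 0 fell, with a median change of 0.76, and 16 were measured higher. Over all genes tested, 3.91% rose, 3.02% fell and 46.2% were measured higher. In the base, whose ATPase ring unfolds substrates, 1 of 9 rose. This was Psmc5, 1 of the 6 ATPases, at 6.93, 7.44, 7.20 and 7.44 on untreated and at 9.27, 8.71, 9.00 and 8.74 on inflamed arrays. The groups did not overlap. Psmc5 rose by 1.68 ± 0.38 (SE; adjusted p = 0.0309), or 3.20-fold. Its adjusted p was 0.124 without pair 1, 0.0699 without pair 2, 0.118 without pair 3 and 0.0584 without pair 4. Without the intensity trend it was 0.111.

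The ATPases Psmc2, Psmc3 and Psmc4 had groups that did not overlap either, with changes of 0.76, 0.93 and 0.92 that did not pass (adjusted p = 0.0784, 0.141 and 0.0555). Psmc6 differed by 1.25 (adjusted p = 0.0898). Psmc1, the ATPase with the lowest change of the base, was at 10.03, 9.55, 10.35 and 10.54 on untreated and at 9.49, 9.69, 10.60 and 10.29 on inflamed arrays. Its change was -0.10 ± 0.22 (SE; adjusted p = 0.848), with the pairs split 2 to 2, and its sign turned to 0.20 after median centring. The scaffold subunits Psmd1 and Psmd2 differed by 0.56 and 0.52, and the ubiquitin receptor Psmd4 by 0.03.

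In the lid, which removes ubiquitin chains, 1 of 8 rose. Psmd14, the deubiquitinating enzyme of the lid, was at 8.50, 9.48, 9.30 and 9.42 on untreated and at 10.27, 10.74, 10.60 and 10.56 on inflamed arrays. No untreated array reached the inflamed ones. Psmd14 rose by 1.36 ± 0.23 (SE; adjusted p = 0.00832), or 2.57-fold, also without each pair, but not without the intensity trend (adjusted p = 0.133).

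Psmd7, its partner in the lid, had the highest change of the lid. It was at 7.25, 6.76, 7.79 and 6.30 on untreated and at 8.75, 8.98, 8.99 and 7.56 on inflamed arrays, where inflamed array 4 fell into the untreated range. The change of 1.55 ± 0.40 (SE) did not pass (adjusted p = 0.0524), though it did after median centring (0.0211), with 16 added to each signal (0.0466) and with the stricter filter (0.0379). With the mean of its probe sets the change was 0.33 (adjusted p = 0.813). Psmd8 had the lowest change, at 7.55, 7.44, 8.08 and 6.72 on untreated and 7.23, 7.80, 8.47 and 7.53 on inflamed arrays, with a difference of 0.31 ± 0.42 (SE; adjusted p = 0.728). Psmd6 and Psmd13 did not overlap between the groups and differed by 0.86 and 1.16 (adjusted p = 0.158 and 0.159). Psmd3, Psmd11 and Psmd12 differed by 0.50, 0.71 and 0.67. After median centring 7 of the 17 19S subunits rose, and with the mean of each gene's probe sets 4. Median centring also moved the median change of all genes tested from -0.09 to 0.22. More of all genes were then called higher, as given in the last section.

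The 7 assembly chaperones hold core and base intermediates together while the particle is built. They showed 0 calls in limma and 1 unadjusted p under 0.05, where 10.5% of all genes were higher and 11.5% lower. The median change of the 7 was 0.12. Psmg4 had the highest change, at 2.36, 4.22, 4.70 and 7.38 on untreated and 7.45, 7.62, 7.39 and 6.44 on inflamed arrays. Untreated array 4 was as high as the inflamed ones and the other 3 were lower, with array 1 under the background ceiling and the largest change, 5.09, in that pair. The change was 2.56 ± 0.92 (SE; adjusted p = 0.137), and without pair 4 it was 3.73 (adjusted p = 0.0324). Psmd10, which binds the ATPase Psmc4, was at 6.26, 6.20, 5.09 and 4.87 on untreated and at 5.96, 0.46, 6.41 and 5.95 on inflamed arrays. Inflamed array 2 was under the background ceiling, far from the other 3. The change of -0.91 ± 1.13 (SE; adjusted p = 0.700) became 0.70 without pair 2. Psmg1, Psmg2, Psmg3, Psmd5 and Psmd9 differed by 0.74, 0.01, 0.63, 0.12 and 0.05.

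Among the other regulators, Psme3 was at 8.55, 10.33, 9.44 and 8.68 on untreated and at 10.04, 10.47, 10.85 and 10.53 on inflamed arrays. Untreated array 2 lay within the inflamed range. Psme3 rose by 1.23 ± 0.30 (SE; adjusted p = 0.0415), or 2.34-fold. The call ended without the intensity trend (adjusted p = 0.218), without the pair block (0.0824), without pair 1 (0.144), without pair 3 (0.159) and without pair 4 (0.112). It also ended with quantile normalization (0.0641) or the mean of its probe sets (0.144).

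Psmf1, an inhibitor of the core known as PI31, was at 6.69, 2.09, 7.07 and 6.21 on untreated and at 7.53, 7.80, 8.69 and 6.90 on inflamed arrays. It was higher in all 4 pairs, by 5.70 in pair 2, where the untreated array was under the ceiling, and by at most 1.61 in the others. The change of 2.21 ± 0.83 (SE) did not pass (adjusted p = 0.158). Psme4, the large activator PA200, was at 6.02, 6.83, 6.87 and 7.06 on untreated and at 6.72, 6.51, 6.45 and 6.52 on inflamed arrays, with overlapping groups and a change of -0.15 ± 0.52 (SE; adjusted p = 0.911) that turned to 0.16 after median centring.

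Psmb11, the thymus subunit, was under the ceiling on all 8 arrays, with a highest value of 2.82. Psma8, the testis subunit, was above it on untreated array 4 alone, at 4.34. Of the matches that are no subunit, Psmc3ip was at 8.92, 8.85, 8.58 and 9.23 on untreated and 8.61, 9.04, 9.24 and 9.86 on inflamed arrays (change 0.30, adjusted p = 0.624). Psme3ip1 was at 7.38, 6.94, 8.14 and 7.55 and at 5.80, 6.51, 8.39 and 6.01 (change -0.83, adjusted p = 0.403). Both overlapped between the groups.

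Probe sets of 1 gene did not always measure the same. Of 80 member probe sets that passed the filter, 13 were higher and 0 lower, while 3.13% and 2.59% of all probe sets tested were. Of the 23 members with more than 1 tested probe set, all probe sets had changes of 1 sign for 16 and of both signs for 7. Those 7 were Psma1, Psma6, Psmb1, Psmd7, Psmd11, Psmg2 and Psmg3. Psmd11 ranged from -0.32 to 1.88 over 6 probe sets, and Psmg2 from -3.06 to 0.01 over 3.

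The partners of the proteasome outside these symbols were taken as a list of 22 symbols for maturation, shuttling and transcriptional control, and 17 could be tested. Only Pomp rose and 0 fell, with a median change of 0.23, against 3.91% of all genes that rose. At an unadjusted p under 0.05 in limma, Pomp and Zfand5 were higher and 1, Ubqln2, was lower. At that threshold 10.5% of all genes were higher and 11.5% lower. Pomp, the chaperone that matures the beta ring and is known to favour immunoproteasome assembly, was at 8.41, 9.22, 8.71 and 9.46 on untreated and at 10.67, 10.60, 10.89 and 11.54 on inflamed arrays. The groups did not overlap, and Pomp rose by 1.97 ± 0.24 (SE; adjusted p = 0.00164), though not without the intensity trend. Zfand5, which binds and activates the proteasome, differed by 0.55 ± 0.15 (SE; adjusted p = 0.0605). Its groups did not overlap either, with inflamed higher, as for 6.3% of all genes tested. The shuttle factor Ubqln2 differed by -0.90 ± 0.34 (SE; adjusted p = 0.159). Its groups did not overlap, with inflamed lower, as for 742 of the 10843 genes tested. The segregase Vcp differed by 0.43 ± 0.20 (SE; adjusted p = 0.251). Nfe2l1, the transcription factor that raises proteasome genes when the proteasome is impaired, differed by 0.23 ± 0.37 (SE; adjusted p = 0.781).

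The route from the proteasome to MHC class I, with known inducers of the immunoproteasome, was a list of 14 symbols, of which 13 were tested. Of these, 11 rose and 0 fell, against 3.91% and 3.02% of all genes tested. The median change of the 13 was 2.37, and 1 rose without the intensity trend. Tap1, read from the stretch shared with Psmb9, was at 3.91, 4.67, 5.71 and 4.51 on untreated and at 7.80, 7.95, 8.27 and 8.65 on inflamed arrays, and rose by 3.47 ± 0.55 (SE; adjusted p = 0.00704). Tap2, next to Psmb8, was at 5.41, 2.15, 4.05 and 4.70 and at 7.41, 7.08, 6.95 and 6.94, and rose by 3.02 ± 0.70 (SE; adjusted p = 0.0345). Untreated array 2 was under the ceiling for Tap2, and the change was 4.92 in that pair against 2.00, 2.90 and 2.24 in pairs 1, 3 and 4. Psmb9, Tap1, Psmb8 and Tap2 were each higher in 4 of 4 pairs with no overlap. Of all genes tested, 13.6% were higher in all 4 pairs and 6.3% did not overlap, with inflamed higher. By the smallest p, the list was led by Tapbp, B2m, H2-K1 and H2-D1, which rose by 2.37, 1.34, 1.06 and 0.87. The transcription factor Irf1 rose by 2.83 ± 0.33 (SE; adjusted p = 0.00160). The class I activator Nlrc5, counted among the 11, had an untreated mean of 2.66, under the filter, and an inflamed mean of 8.64, so it was tested only through the inflamed group. It was above the ceiling on 2 of 4 untreated arrays.

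**Figure D4:**
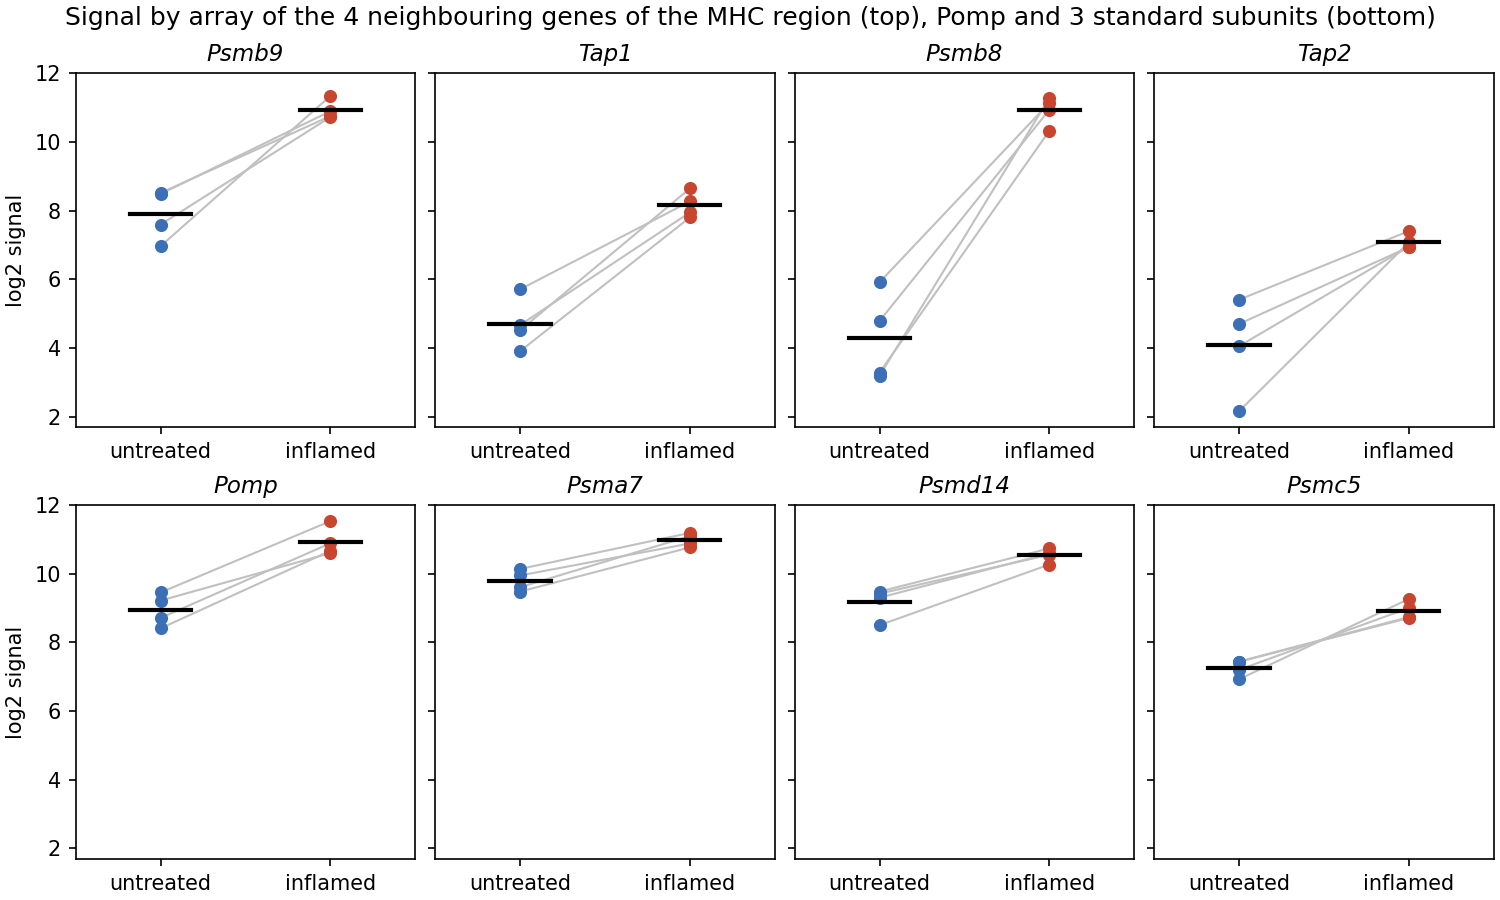
Log2 signal on each array of the neighbouring genes Psmb9, Tap1, Psmb8 and Tap2 (top) and of Pomp, Psma7, Psmd14 and Psmc5 (bottom), with grey lines joining the 2 arrays of a pair and black bars at the group means. In all 8 genes every inflamed array lies above every untreated one, as for 6.3% of all genes tested. The mean changes are 3.04, 3.47, 6.63 and 3.02 in the upper row and 1.97, 1.19, 1.36 and 1.68 in the lower.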

How the data were processed

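RNA of sorted lymphatic endothelial cells, amplified and labelled with biotin per the labels' protocols, was measured on 8 single-colour arrays. The deposited table holds 1 linear intensity per probe set and array, made with MAS5 per the submitters' processing notes. Its version and scaling target are not given in the sources. Intensities were taken to log2, and probe sets whose mean fell below 3.30, the median over probe sets, were dropped, and of the probe sets naming 1 gene (GEO's platform annotation) the one with the highest mean represented it. The largest gap between array medians was 0.468 (limit 0.5), so the deposited scaling was kept. Genes were fitted with limma 3.58.1 in R 4.3.3 (eBayes with an intensity trend), and each pair was a block. The fit was tested on simulated data with normal errors of the spread it had itself estimated. That test cannot speak to the choice of the intensity trend. The series' design text states the pairing. Across genes, the 2 arrays of a pair deviated from their group means with correlations of 0.16, -0.0012, 0.08 and 0.03. P-values refer to pools of 3 mice, and the number of arrays limits the precision. Members were named by class, the interferon-induced and standard catalytic subunits, all others past the threshold and the highest and lowest change of each class with every array's value, and up to 4 genes of each pathway list by smallest p. Tap1, Tap2, Irf1, Nlrc5 and Nfe2l1 were named outside that rule. Members and lists were chosen with earlier results of these data known. Promoters are RefSeq's (GRCm38.p6). Alternatives were scaling, pseudocount (16), filter (none, or the upper quartile at 5.90), block, trend, mean of probe sets and each pair left out. A comparison of Psme2 with Psme3 was not run, since Psme2 shares its probe set.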

Additional observations from a re-analysis of the deposited data

Results flagged for a closer look

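Of 94 groups of 4 arrays examined, 1 array stood far from the other 3 in 5, and by chance about 1 in 20 groups would be picked out in this way. Psma3 on untreated array 2 was at 10.23, above the next value of 9.98. Psmc4 on inflamed array 4 was at 10.21, above the next of 9.80. Psmd4 on inflamed array 3 was at 9.69, above the next of 8.13. Psmd7 on inflamed array 4 was at 7.56, below the next of 8.75. Psmd10 on inflamed array 2 was at 0.46, under the background ceiling and below the next of 5.95.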

How the results depend on the processing

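Of the results given above, the direction of all 11 calls among the members held under each of the 12 alternatives. Without the intensity trend the members that rose fell from 11 to 2, the interferon-induced parts from 4 to 2, the core subunits from 4 to 0, the 19S subunits from 2 to 0, the partners from 1 to 0, the class I route from 11 to 1, the member probe sets from 13 to 2 and all genes from 424 higher and 328 lower to 94 and 47. Median centring gave 17 members, 7 19S subunits, 2 partners and 719 higher against 227 lower genes of all, and the upper quartile filter 2 partners. The mean of probe sets gave 4 19S subunits. Without 1 pair, all genes ranged from 208 to 306 higher and from 126 to 198 lower, members were at 7 each time, core subunits ranged from 1 to 2 and 19S subunits were at 1. Without the pair block the call of Psme3 ended (adjusted p = 0.0824) and 10 of the 11 calls remained. Signs that turned were all of members that did not pass: Psmb1 -0.14, Psmg2 -1.59 and Psmg3 -0.21 with the mean of probe sets, Psmc1 0.20 and Psme4 0.16 after median centring, Psmc1 0.0478 and Psmg2 -0.0053 without pair 1, Psmd10 0.70 and Psmd9 -0.24 without pair 2, Psmd4 -0.51, Psmd5 -0.23, Psmg2 -0.01 and Psmg3 -0.17 without pair 3, and Psmd9 -0.60 and Psmg2 -0.12 without pair 4. Over the 4 fits without a pair, the changes of these members ranged from -0.22 to 0.0478 for Psmc1, from -1.66 to 0.70 for Psmd10, from -0.51 to 0.30 for Psmd4, from -0.23 to 0.52 for Psmd5, from -0.60 to 0.54 for Psmd9, from -0.12 to 0.20 for Psmg2 and from -0.17 to 2.12 for Psmg3. The cause was not tested.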
